A study of Mus musculus with 5 samples.

Results

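The 48 genes described here encode the RNA polymerase I (Pol I) machinery and the nucleolar factors that process ribosomal RNA (rRNA) and assemble the ribosomal subunits. They were chosen by gene name for their role and make up 48 of the 24527 genes in the deposited count table. Ribosome production starts in the nucleolus, where Pol I transcribes one long precursor rRNA. Small nucleolar RNAs (snoRNAs) carried by protein complexes guide chemical changes and cuts in that precursor, and many assembly factors then fold it with ribosomal proteins into a small and a large subunit that are exported to the cytoplasm. Tumor cells that divide fast usually have large nucleoli. In mice of the genotype used here, the study compared nucleoli between types of tumor lesion and normal glands. It also reported raised ribosome synthesis pathways in tumor cells of this genotype over those of mice without the stabilized β-catenin allele. Neither of those comparisons set castrated against intact tumors. The comparison addressed here is how the genes of this pathway were expressed in tumors with and without androgen.

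The samples were prostate tumors of TripleTg mice that combined hHGFtg, the H11 hMET/+ and Ctnnb1 L(Ex3)/+ alleles and PB Cre4, on a mixed C57BL/6 and C3H SCID background. All samples carried the same alleles: a human HGF transgene expressed in all tissues, a human MET transgene behind a stop cassette, and a β-catenin allele that is stabilized once an exon of it is removed. Cre driven by the probasin promoter, which depends on androgen and is active in prostate epithelium, switches on the MET and β-catenin alleles, so host stroma and immune cells are not recombined by it. The 3 castrated samples came from mice castrated at 4 months of age and analyzed at 8 months, and the 2 intact samples were matched for age and genotype. RNA-seq of ribosomal-RNA-depleted libraries gave 28015507, 18951782 and 20492061 counts in castrated samples 1 to 3, and 21560355 and 22853501 in intact samples 1 and 2. The sample descriptions hold a distinct code for each sample, but the labels do not say how the tissue pieces were taken. The p-values therefore measure the spread between these samples.

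The labels name prostate tumor tissue, and markers of epithelium were present in all samples. The keratin Krt8, of 10 epithelial markers the most abundant over all samples, was at 875, 777 and 1144 CPM (counts over library size, here scaled by TMM, a trimmed mean of M-values) in the castrated samples and at 1155 and 661 in the intact samples. Of 9 secretory and luminal prostate markers 3 passed the filter on low values, and the summed level of all 9 was 99.7, 73.3 and 95.9 CPM in the castrated samples and 96.4 and 2312 CPM in the intact samples. Pbsn, the probasin gene, reached 5.21 CPM in intact sample 2 and no more than 0.454 CPM in the other samples, and Msmb was at 0 in all 5. Intact sample 2 stood apart from the others for Tgm4, a secretory transglutaminase, at 1347 CPM against at most 0.419 elsewhere. It also stood apart for the cytosolic ribosomal proteins, whose summed level was 132123 CPM there, 45676 CPM in intact sample 1, and 43158, 38139 and 43877 CPM in castrated samples 1 to 3.

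All 48 genes passed the filter on low values (CPM above 1 in at least 2 samples), which kept 14612 genes, and the lowest count of any of them in any sample was 161. Their summed level was 3263, 3198 and 2939 CPM in the castrated samples and 4133 and 4451 CPM in the intact samples. Each castrated sample lay below both intact samples. Of the 48 genes, 46 had a negative log2 fold change (castrated over intact), where 52.1% of all genes tested did. The median was -0.43, against -0.03 over all genes tested. In bulk tissue, fewer cells of a type and less RNA per cell cannot be told apart.

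No gene was called at an adjusted p under 0.05 with an absolute log2 fold change above 1 in edgeR (quasi-likelihood F-test, p-values adjusted by Benjamini-Hochberg over all genes tested). That makes 0% of all genes and 0 of the 48. At these thresholds the study reported differentially expressed genes between castrated and intact tumors, with TPM named as its input. Why the calls differ was not tested. The smallest adjusted p was 0.320, the same for the 48 genes and for all genes tested. At an unadjusted p under 0.05, 15 of the 48 genes were lower and 0 were higher. Over all genes tested, 5.93% were lower and 8.29% higher at that level, 2079 genes in all. Without castrated sample 2 the count of 15 became 9, where 2.47% of all genes tested were lower, and without castrated sample 3 it also became 9, where 2.49% were. For 29 of the 48 genes every castrated value lay below both intact values, and for 0 the castrated values all lay above, where 16.1% and 17% of all genes tested did so. The 15 genes were Taf1d, Polr1a and Polr1b of Pol I transcription, Nop56, Nop58 and Fbl, Nhp2, Dkc1 and Gar1, Mybbp1a, Wdr75, Nob1, and Wdr12, Gnl3 and Nip7 of the large subunit. The 4 genes over 2-fold lower lie at chr9:15306214-15316997 (Taf1d, plus strand), chr2:130274412-130279313 (Nop56, plus strand), chr1:60076868-60098500 (Wdr12, minus strand) and chr14:31012433-31019131 (Gnl3, minus strand) in mm10. DESeq2 called 989 of the 14612 genes tested, among them 4 of the 48. The likelihood ratio test of edgeR called 369 of the 14612, among them 1 of the 48. With both, the share among the 48 was near the share over all genes tested. The count with limma voom was 0.

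**Figure D1:**
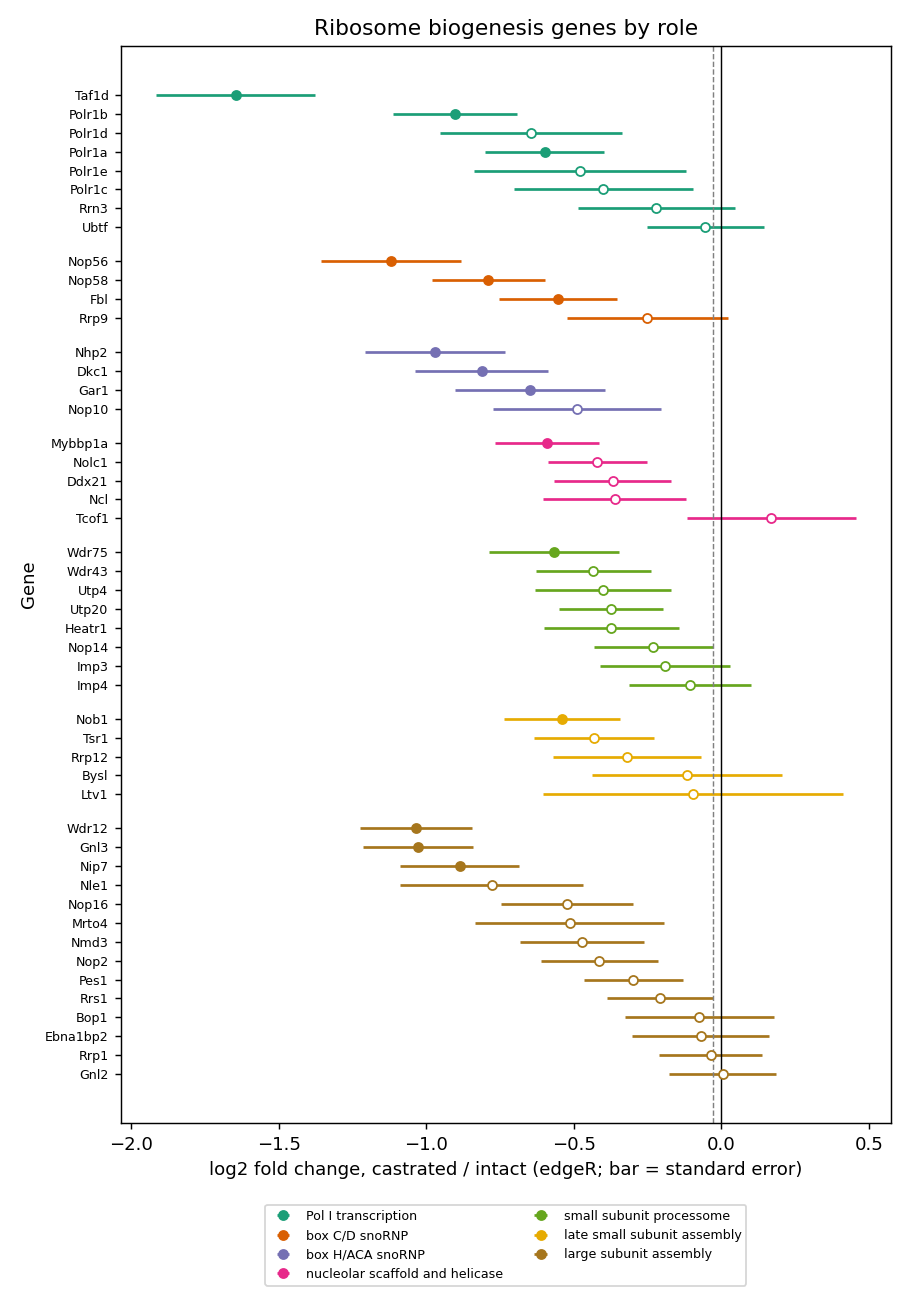
Log2 fold change of castrated over intact samples (x axis) for each of the 48 genes (y axis), grouped by role, with bars of 1 standard error from edgeR. Filled points have an unadjusted p under 0.05, and the dashed line marks the median of all genes tested at -0.03. All but Tcof1 and Gnl2 lie left of 0, and Taf1d lies farthest left at -1.65.

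Within the Pol I machinery, all 8 genes had a negative log2 fold change, with a median of -0.54, and 3 of them, Taf1d, Polr1b and Polr1a, were lower at the unadjusted threshold. Polr1a encodes the largest, catalytic subunit of Pol I and was at 47.1, 37.6 and 46.1 CPM in the castrated samples against 69.8 and 62.4 CPM in the intact samples. The groups did not overlap, and the log2 fold change was -0.60 ± 0.20 (SE, unadjusted p = 0.0296). Polr1b, which encodes the second-largest subunit, was at 25.2, 30.5 and 27.5 CPM in the castrated samples against 46.5 and 57.2 CPM in the intact samples. Again no castrated sample reached an intact one, with a log2 fold change of -0.90 ± 0.21 (SE, unadjusted p = 0.00678). The smaller subunits, Polr1d at -0.64, Polr1e at -0.48 and Polr1c at -0.40, were lower in sign with all samples. Their groups overlapped, and they did not pass the unadjusted threshold. Without intact sample 2, Polr1d was at -0.16 and Polr1c at 0.02. Without intact sample 1, they were at -1.01 and -0.73.

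Taf1d had the lowest fold change of the 48 genes. It encodes a subunit of selectivity factor SL1, which binds the promoter of the rRNA genes, and it was at 57.4, 40.1 and 34.6 CPM in the castrated samples and at 130 and 145 CPM in the intact samples. The 2 intact samples lay close together and far above all 3 castrated samples. The castrated mean was 32.0% of the intact mean in the fit, a log2 fold change of -1.65 ± 0.27 (SE, unadjusted p = 0.00139, adjusted p = 0.320 by edgeR).

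Ubtf, the upstream binding factor that coats the active rRNA genes, was at 115.5, 143 and 131 CPM in the castrated samples and at 125 and 145 CPM in the intact samples. The ranges were interleaved and the log2 fold change was -0.05 ± 0.20 (SE, unadjusted p = 0.794). Rrn3, which couples the polymerase to the promoter-bound factors, was at 81.3, 73.3 and 53.3 CPM against 92.4 and 69.1 CPM. Castrated samples 1 and 2 exceeded intact sample 2, and the log2 fold change was -0.22 ± 0.27 (SE, unadjusted p = 0.444). Of the 13 other Pol I factors and shared subunits, 11 had a negative log2 fold change, 1 passed the unadjusted threshold and the median was -0.40. They ranged from Taf1a, another SL1 subunit, at -0.74 (unadjusted p = 0.0364) to the small Pol I subunit Znrd1 at 0.14 (unadjusted p = 0.648).

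The proteins that carry snoRNAs had a median of -0.67 for the 4 of box C/D and -0.73 for the 4 of box H/ACA. The former ranged from -1.12 (Nop56) to -0.25 (Rrp9), and the latter from -0.97 (Nhp2) to -0.49 (Nop10). Their difference from the other roles was not tested. Box C/D particles guide methylation of rRNA, and Fbl (fibrillarin) is their methyltransferase. It was at 44.7, 42.4 and 42.6 CPM in the castrated samples and at 55.7 and 71.2 CPM in the intact samples. The castrated samples were nearly equal, all lay below the intact samples, and the log2 fold change was -0.55 ± 0.20 (SE, unadjusted p = 0.0369).

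Nop56, a core protein of the same particle, was at 79.1, 73.1 and 53.3 CPM in the castrated samples and at 159 and 138 CPM in the intact samples. The castrated values did not reach the intact ones, and the log2 fold change of -1.12 ± 0.24 (SE, unadjusted p = 0.00444) was the second lowest of the 48. Its partner Nop58 was at 90.4, 86.9 and 85.0 CPM against 132 and 170 CPM. Those groups were also separate, with a log2 fold change of -0.79 ± 0.19 (SE, unadjusted p = 0.00826). Rrp9, which binds the U3 snoRNA, was less different at -0.25 and its groups overlapped.

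Box H/ACA particles guide the conversion of uridine to pseudouridine, and Dkc1 (dyskerin) is the enzyme. Dkc1 was at 39.2, 37.2 and 38.4 CPM in the castrated samples and at 55.3 and 79.2 CPM in the intact samples. The castrated samples were tight, the intact ones spread, and the groups did not overlap (log2 fold change -0.81 ± 0.22, SE, unadjusted p = 0.0138). Nop10, its small partner, was at 57.3, 34.8 and 38.1 CPM against 56.3 and 65.5 CPM. Castrated sample 1 sat within the intact range, and the log2 fold change of -0.49 ± 0.28 (SE, unadjusted p = 0.142) did not pass. Nhp2 at -0.97 and Gar1 at -0.65, the other 2 core proteins, had separate groups and passed the unadjusted threshold.

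**Figure D2:**
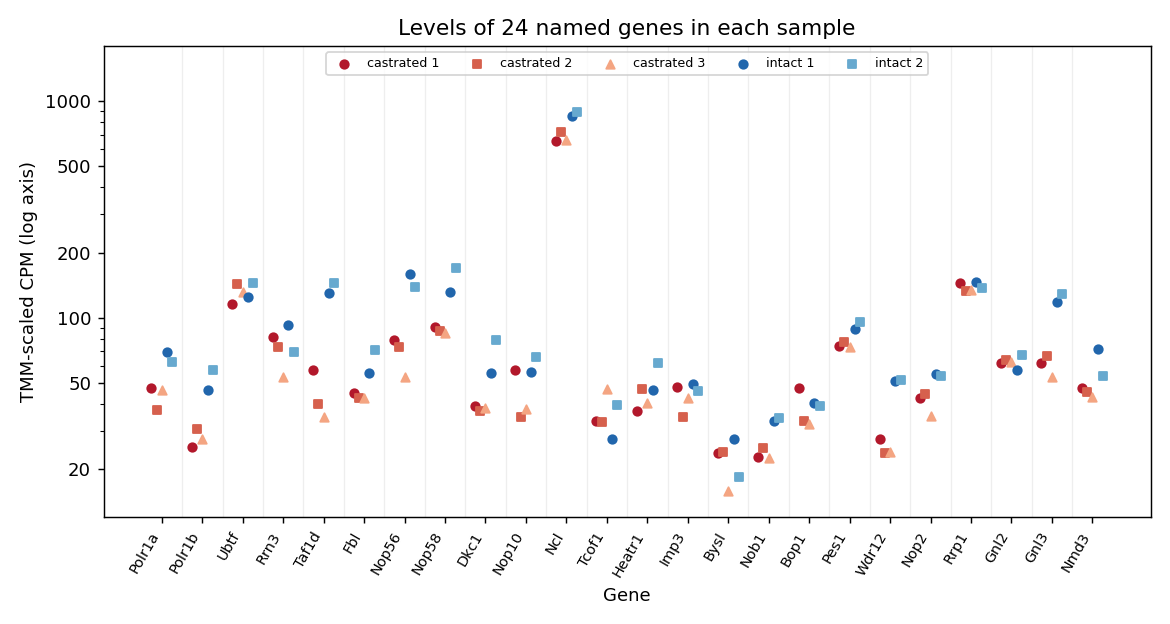
TMM-scaled CPM (log axis) of 24 of the genes in each of the 5 samples, with castrated samples in red shades and intact samples in blue shades. Taf1d, Nop56, Nop58, Gnl3 and Wdr12 show a gap between the colors, while Ubtf, Tcof1, Rrp1 and Gnl2 do not.

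The nucleolar scaffold proteins had the most abundant transcript of the 48 genes and one of only 2 that were not lower. Ncl (nucleolin), the major protein of the nucleolus that binds nascent rRNA, was at 656, 724 and 659 CPM in the castrated samples and at 850 and 895 CPM in the intact samples. All castrated samples lay below both intact ones, but the log2 fold change of -0.36 ± 0.24 (SE, unadjusted p = 0.194) did not pass the unadjusted threshold. A TPM scale, which is per length, was computed from the counts and the length in kilobases that the file lists for each gene. On that scale Ncl also had the highest mean level at 207 TPM, with a listed length of 8.24 kb. Rrp1 was next at 158 TPM. The lowest mean level was that of Polr1e at 7.68 TPM. These means are over all samples, and the order below Ncl differed by sample. In intact sample 1, Nop56 (193 TPM) exceeded Rrp1 (180 TPM). In castrated sample 1, Polr1e (9.34 TPM) exceeded Rrp12 (8.87 TPM).

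Tcof1 encodes treacle, a scaffold that joins Pol I transcription to rRNA processing, and was at 33.4, 32.9 and 46.8 CPM in the castrated samples and at 27.5 and 39.6 CPM in the intact samples. Its highest value was in castrated sample 3 and its lowest in intact sample 1. The log2 fold change of 0.17 ± 0.29 (SE, unadjusted p = 0.580) was the highest of the 48 and turned negative without castrated sample 3 or without intact sample 1. The other 3 genes of the group, the MYB-binding nucleolar protein Mybbp1a (-0.59, unadjusted p = 0.0185), the snoRNP chaperone Nolc1 (-0.42) and the RNA helicase Ddx21 (-0.37), had separate groups, and Mybbp1a alone of these passed.

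The small subunit processome, the large particle that forms on the precursor as it is transcribed, had a negative log2 fold change in all 8 genes measured, with a median of -0.37. The groups did not overlap for 4 of the 8, and 1, Wdr75, passed the unadjusted threshold. Heatr1, a scaffold of the subcomplex that also acts in Pol I transcription, was at 37.2, 46.9 and 40.5 CPM in the castrated samples and at 46.1 and 61.5 CPM in the intact samples. Castrated sample 2 was above intact sample 1, and the log2 fold change was -0.37 ± 0.23 (SE, unadjusted p = 0.161). Without intact sample 1 the log2 fold change of Heatr1 was -0.55, and without intact sample 2 it was -0.19. Imp3, which helps the U3 snoRNA pair with the precursor, was at 47.6, 34.6 and 42.4 CPM against 49.2 and 45.7 CPM. Those samples were mixed, with a log2 fold change of -0.19 ± 0.22 (SE, unadjusted p = 0.421).

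Late in small subunit assembly, Nob1, the nuclease that makes the final cut of the small subunit rRNA, was at 22.7, 24.9 and 22.4 CPM in the castrated samples and at 33.5 and 34.4 CPM in the intact samples. The groups were tight and separate, with a log2 fold change of -0.54 ± 0.20 (SE, unadjusted p = 0.0374). Bysl (bystin), which acts before export of the particle, was at 23.8, 23.9 and 15.8 CPM against 27.5 and 18.4 CPM. Intact sample 2 lay below castrated samples 1 and 2, and the log2 fold change was -0.12 ± 0.32 (SE, unadjusted p = 0.732). Ltv1, a factor released late in the maturation of the particle, varied most within groups, at 113, 63.9 and 55.7 CPM in the castrated samples and at 119 and 47.0 CPM in the intact samples. Of 39 other small subunit factors, 30 had a negative log2 fold change, 6 were lower and 0 higher at the unadjusted threshold, and the median was -0.15. The range ran from Dimt1, an rRNA methyltransferase, at -1.01 (unadjusted p = 0.0115) to Nop9 at 0.31 (unadjusted p = 0.242).

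The 14 large subunit genes ranged in log2 fold change from -1.03 (Wdr12) to 0.00 (Gnl2), with a median of -0.44. Gnl3 (nucleostemin), a nucleolar GTPase abundant in proliferating and stem cells, was at 62.0, 66.2 and 53.3 CPM in the castrated samples and at 119 and 128 CPM in the intact samples. The 2 groups were far apart beside their own spread, and the log2 fold change was -1.03 ± 0.19 (SE, unadjusted p = 0.00223). Its relative Gnl2 was at 62.0, 63.6 and 62.1 CPM against 57.3 and 67.4 CPM, a log2 fold change of 0.00 ± 0.18 (SE, unadjusted p = 0.980). The castrated values of Gnl2 fell between the 2 intact values.

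Pes1, Bop1 and Wdr12 form one complex that is needed for processing of the large subunit rRNAs, and the values of their transcripts are given side by side. Wdr12 was at 27.4, 23.7 and 23.97 CPM in the castrated samples and at 51.1 and 51.5 CPM in the intact samples. All castrated samples were near the same level under the intact ones (log2 fold change -1.03 ± 0.19, SE, unadjusted p = 0.00237). Pes1 was at 73.9, 77.3 and 73.6 CPM against 88.8 and 95.6 CPM. It was separate between the groups but less far, with a log2 fold change of -0.30 ± 0.17 (SE, unadjusted p = 0.131). Bop1 was at 47.5, 33.4 and 32.2 CPM against 40.4 and 38.9 CPM. Castrated sample 1 was the highest of the 5, and the log2 fold change was -0.07 ± 0.25 (SE, unadjusted p = 0.778). The difference between these 3 genes was not tested.

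Nop2, an rRNA methyltransferase, was at 42.4, 44.6 and 35.3 CPM in the castrated samples and at 54.8 and 53.9 CPM in the intact samples. The groups did not overlap, and the log2 fold change was -0.41 ± 0.20 (SE, unadjusted p = 0.0895). Nmd3, the adaptor that joins the large subunit to the export receptor, was at 47.3, 45.2 and 43.2 CPM against 71.8 and 53.7 CPM. Those groups were separate too, with intact sample 1 the highest, and the log2 fold change was -0.47 ± 0.21 (SE, unadjusted p = 0.0714). Without intact sample 1 the log2 fold change of Nmd3 was -0.23, and without intact sample 2 it was -0.71. Rrp1 was at 145, 133 and 134 CPM against 145 and 137 CPM, which overlapped (log2 fold change -0.04 ± 0.17, SE, unadjusted p = 0.839).

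Among 47 other large subunit factors, 45 had a negative log2 fold change, 4 were lower and 0 higher at the unadjusted threshold, and the median was -0.31. Ppan, a factor required for large subunit rRNA processing, was the lowest, at 22.3, 21.2 and 19.98 CPM in the castrated samples and at 39.4 and 51.3 CPM in the intact samples. The groups did not overlap (log2 fold change -1.10 ± 0.22, SE, unadjusted p = 0.00321). The helicase Ddx31 was the highest at 0.20 (unadjusted p = 0.457). The RNA exosome, which trims rRNA ends, had 9 of 13 tested genes with a negative log2 fold change and 1 past the unadjusted threshold, from Exosc5 at -0.63 to Exosc3 at 0.16. Nuclear export genes were lower in sign in 10 of 10. The export receptor Xpo1 was at 110, 133 and 127 CPM against 139 and 163 CPM (log2 fold change -0.30, unadjusted p = 0.183). By qPCR the study reported the opposite direction, a significant rise of Xpo1 in castrated over intact TripleTg tumors. Why these measurements differ was not tested. The mRNA export factor Nxf1 was the lowest of the list at -0.81 (unadjusted p = 0.00724), and Cse1l the highest at -0.09.

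Regulators of Pol I did not share one direction: 10 of 14 were lower in sign, and 1 was lower and 1 higher at the unadjusted threshold. Myc, a transcription factor that activates many ribosome biogenesis genes, was the lowest, at 69.2, 89.8 and 51.1 CPM in the castrated samples and at 196 and 85.9 CPM in the intact samples. Intact sample 1 was far above the rest, and intact sample 2 lay below castrated sample 2. The log2 fold change was -1.01 ± 0.43 (SE, unadjusted p = 0.0611). Cdkn2a, whose ARF product restrains rRNA processing, was the highest, at 20.1, 15.6 and 5.80 CPM against 4.21 and 4.46 CPM. Its groups did not overlap, and its log2 fold change was 1.67 ± 0.61 (SE, unadjusted p = 0.0384).

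Several of the lowest genes share a feature of their structure: they hold snoRNA genes. In the GENCODE M21 annotation of GRCm38, the build of the count table, 8 of the 48 genes had a snoRNA gene inside their body on the same strand. These were Taf1d, Nop56, Nop58, Dkc1, Ncl, Wdr43, Tsr1 and Gnl3, with 8, 5, 4, 1, 3, 3, 2 and 3 snoRNA genes. The following box C/D snoRNAs are shown to make the feature visible, chosen because they contain both motifs letter for letter (Snord57, Snord70 and Snord19 of the same 3 hosts do not contain TGATGA), with the box C motif (TGATGA) and the box D motif (CTGA) that Nop56, Nop58 and fibrillarin assemble on in capitals, in the DNA sense of the transcript. They lie at chr2:130275506-130275573 (plus strand, in Nop56), chr1:59704790-59704873 (plus strand, in Nop58) and chr14:31014287-31014366 (minus strand, in Gnl3).
Snord110: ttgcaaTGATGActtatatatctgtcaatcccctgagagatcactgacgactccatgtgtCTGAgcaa
Snord11: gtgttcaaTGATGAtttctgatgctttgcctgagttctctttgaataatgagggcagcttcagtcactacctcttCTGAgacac
Snord69: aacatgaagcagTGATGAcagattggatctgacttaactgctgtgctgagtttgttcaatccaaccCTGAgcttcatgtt

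The 8 genes with a snoRNA gene had a median log2 fold change of -0.80, from -1.65 (Taf1d) to -0.36 (Ncl), and 5 of them were lower at the unadjusted threshold. The 40 without one had a median of -0.40, and 10 of them were lower at that threshold. All 8 hosts, and 21 of the 40 others, had castrated values that all lay below the intact values. Outside the pathway, ribosomal proteins and the noncoding hosts, the 202 tested genes that hold a snoRNA gene had a median of -0.22, and 32.2% of them had castrated values that all lay below the intact values. The 14275 that hold none had a median of -0.02 and a share of 15.4%. For the 40 of the 202 that hold a named Snord or Snora gene, the median was -0.40 and the share 55.0%. The 6 genes of the pathway that hold a named one, which leaves out Taf1d and Dkc1, had a median of -0.61, and 3 of them were lower at the unadjusted threshold. Those groups share annotation only, and no test of the difference was made. Among the ribosomal proteins the medians were -1.08 for 29 hosts and -1.10 for 47 others, and the share without overlap was lower in the hosts, at 44.8% against 63.8%.

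The noncoding RNAs of rRNA processing and the noncoding snoRNA hosts were the lowest list of the pathway, with a median of -1.32. Of 16 RNAs listed, 14 were in the table and 11 were tested, all of them noncoding RNAs known as snoRNA hosts. All 11 were lower in sign, and 10 were lower at the unadjusted threshold and without overlap. Zfas1 was the lowest, at 52.7, 28.7 and 39.9 CPM in the castrated samples and at 76.8 and 231 CPM in the intact samples. The intact samples were both above, but 3-fold apart from each other (log2 fold change -1.93 ± 0.52, SE, unadjusted p = 0.0127). Snhg1 was at 50.2, 33.0 and 35.6 CPM against 108 and 180 CPM, with no overlap (log2 fold change -1.86 ± 0.32, SE, unadjusted p = 0.00174). Gas5 was the highest and the most abundant, at 174, 132 and 83.5 CPM against 161 and 315 CPM. Castrated sample 1 exceeded intact sample 1, and Gas5 did not pass (log2 fold change -0.88 ± 0.43, SE, unadjusted p = 0.0938).

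The snoRNAs themselves were barely counted. The 119 rows of the table named as Snord, Snora or Scarna genes summed to 417, 153 and 197 counts in the castrated samples and to 796 and 850 counts in the intact samples, or 14.9, 8.07 and 9.61 against 36.9 and 37.2 CPM of library size. The castrated samples were the lower ones here as well, on few counts. The RNA components Rpph1 and Terc were at 0 in all samples, and Rmrp was too low to be tested.

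**Figure D3:**
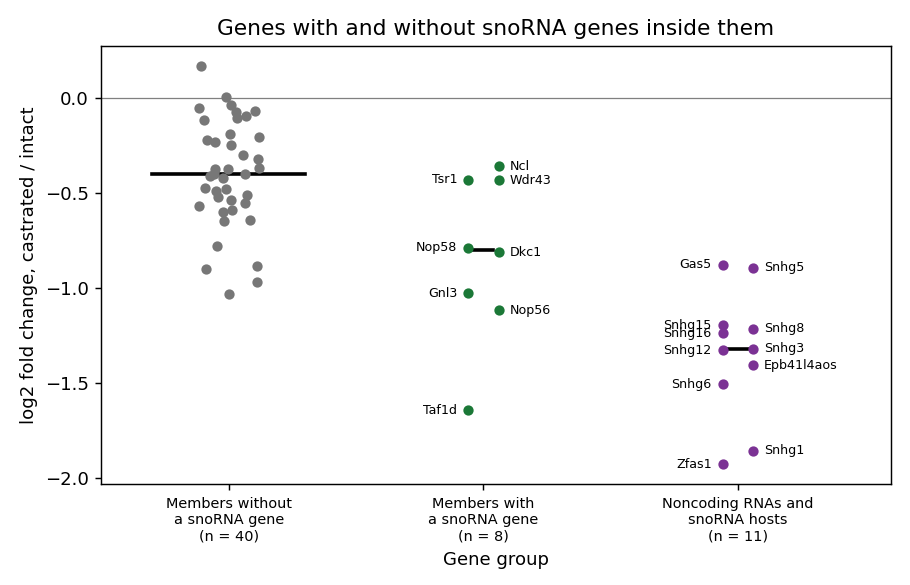
Log2 fold change of castrated over intact samples (y axis) for the 40 genes of the pathway without a snoRNA gene, the 8 with one, and 11 noncoding RNAs and snoRNA hosts (x axis). Black lines mark the medians at -0.40, -0.80 and -1.32.

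Promoter sequences were available in RefSeq (GRCm38.p6) for 42 of the 48 genes, from 250 bases before to 50 bases after the annotated start. The E-box CACGTG, to which MYC with its partner MAX binds, was searched because Myc is a known activator of this pathway. It reads the same on both strands. It was in 12 of 42 promoters (28.6%), against 8.09% of 27025 genes with a promoter and 11.2% of the 11533 of them that were tested here. The GC box GGGCGG was in 69.0%, against 38.2% of all and 66.0% of the tested genes. CCAAT was in 33.3%, against 41.1% and 42.2%, and the ETS motif CCGGAAG was in 31.0%, against 9.93% and 18.2%. These 3 were searched on both strands, and the 4 motifs do not contain one another. Against tested genes the shares of the E-box and the ETS motif were higher, that of the GC box was nearly equal and that of CCAAT was lower, and none of these differences was tested.

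A few of these promoters are printed as the 120 bases before the start, to set E-box genes beside 3 of the 4 genes that were over 2-fold lower. Rrn3 (chr16:13780579-13780698, plus strand), Nop2 (chr6:125131763-125131882, plus strand) and Nmd3 (chr3:69721935-69722054, plus strand) have the E-box in this stretch. Taf1d (chr9:15306094-15306213, plus strand), Nop56 (chr2:130274292-130274411, plus strand) and Gnl3 (chr14:31019132-31019251, minus strand) have none. Capitals mark any of the 4 motifs on either strand, and each line is read 5′ to 3′ on the gene's strand.
Rrn3: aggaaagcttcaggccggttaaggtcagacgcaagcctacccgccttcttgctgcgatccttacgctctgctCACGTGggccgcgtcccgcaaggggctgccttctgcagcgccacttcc
Nop2: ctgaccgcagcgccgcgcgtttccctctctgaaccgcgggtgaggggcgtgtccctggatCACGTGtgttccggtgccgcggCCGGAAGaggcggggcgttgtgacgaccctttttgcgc
Nmd3: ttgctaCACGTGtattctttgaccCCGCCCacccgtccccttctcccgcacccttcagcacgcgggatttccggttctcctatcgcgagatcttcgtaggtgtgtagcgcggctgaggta
Taf1d: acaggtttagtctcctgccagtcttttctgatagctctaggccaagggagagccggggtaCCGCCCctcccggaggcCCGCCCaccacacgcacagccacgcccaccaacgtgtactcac
Nop56: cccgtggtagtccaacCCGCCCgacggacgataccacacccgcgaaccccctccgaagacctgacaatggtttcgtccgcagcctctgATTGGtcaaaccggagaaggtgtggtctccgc
Gnl3: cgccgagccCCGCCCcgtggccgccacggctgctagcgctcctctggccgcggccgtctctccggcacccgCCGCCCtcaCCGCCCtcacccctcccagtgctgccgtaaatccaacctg

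The 12 genes with the E-box had a median log2 fold change of -0.41, from -0.78 (Nle1) to -0.10 (Ltv1), and the 30 without it a median of -0.52. Over all tested genes with a promoter entry the medians were -0.07 with the E-box and -0.03 without it, and neither difference was tested. In 4 of the 12 the motif lay before the start, at base -48 and again at -215 in Rrn3 and at -60 in Nop2, and in 8 it lay after the start. A match of letters does not show that a factor bound there.

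The level of the pathway in each sample placed the 2 intact samples together, unlike the ribosomal proteins. Relative to the mean of the intact samples, the median log2 level of the 48 genes was -0.34, -0.44 and -0.57 in castrated samples 1 to 3, and -0.10 and 0.10 in intact samples 1 and 2. Castrated sample 3 was the lowest for 25 of the 48 genes, and intact sample 2 the highest for 33. The 76 cytosolic ribosomal proteins were at -0.82, -1.04 and -0.80 in the castrated samples, at -0.76 in intact sample 1 and at 0.76 in intact sample 2. Intact sample 1 was thus just above the castrated samples, and intact sample 2 far above, and the median log2 fold change in the comparison was -1.09. The median over genes of the SD between the intact samples (log2) was 0.16 for the 48 genes, 1.07 for the ribosomal proteins and 0.38 for all genes tested. The 77 mitochondrial ribosomal proteins tested, which serve another ribosome, had a median log2 fold change of -0.31, with 72 lower in sign and 4 lower at the unadjusted threshold.

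**Figure D4:**
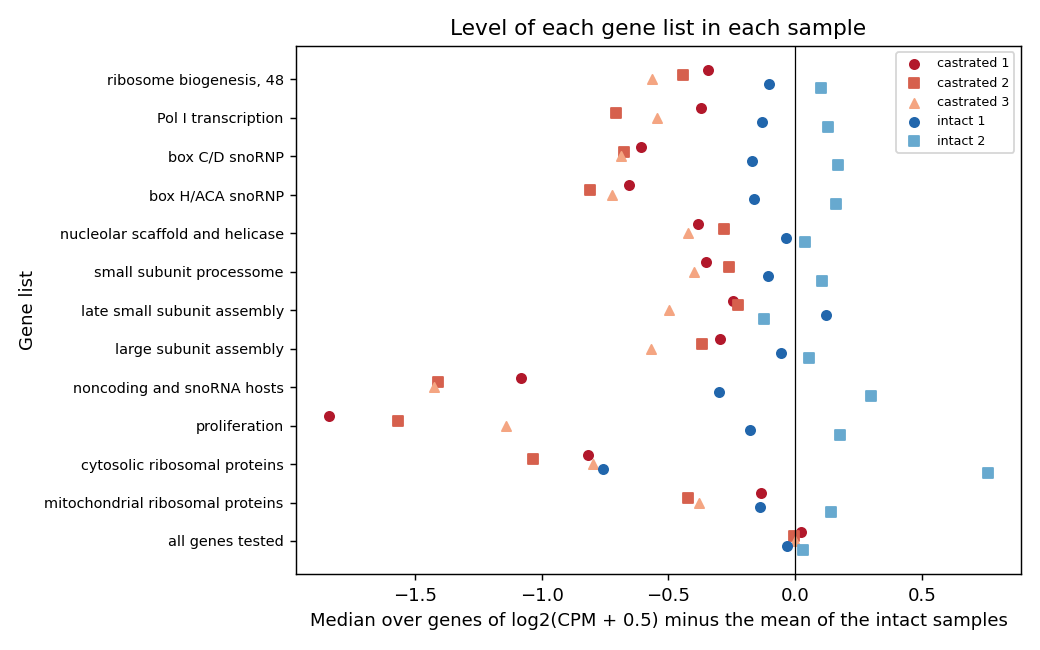
Median over the genes of each list of the log2 level (CPM + 0.5) minus the mean of the intact samples (x axis), for the 48 genes, their 7 roles and 5 comparison lists (y axis), 1 point per sample. The 48 genes lie between -0.57 and -0.34 in the castrated samples, and for the cytosolic ribosomal proteins intact sample 1 lies at -0.76, just above the castrated samples at -1.04 to -0.80.

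Genes of cell division moved in the same direction. All 20 proliferation genes were lower in sign, 15 at the unadjusted threshold, with a median log2 fold change of -1.63, and their summed level was 311, 389 and 470 CPM in the castrated samples and 702 and 875 CPM in the intact samples. Mki67, the proliferation marker Ki-67, was at 18.7, 30.5 and 40.3 CPM in the castrated samples and at 101 and 128 CPM in the intact samples. The castrated samples were all far below. Castrated sample 3 was the highest of the castrated samples for proliferation and the lowest for the 48 genes. The part of cell division in the result was not tested.

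Markers of other cells also differed between the groups. Smooth muscle markers were higher in 8 of 8, 7 at the unadjusted threshold, with summed levels of 443, 762 and 706 CPM in the castrated samples and 256 and 169 CPM in the intact samples, with Acta2 the most abundant over all samples. Macrophage markers were higher in 8 of 8, 6 at the threshold, with 2473, 7269 and 2942 CPM against 1112 and 1616 CPM, led by Lyz2. Fibroblast markers were higher in 6 of 8, 4 at the threshold, with 4706, 5799 and 7723 CPM against 4264 and 2588 CPM, with Dcn the most abundant over all samples and Col3a1 in castrated sample 1 and both intact samples. Dcn itself was at 998, 2662 and 3825 CPM against 487 and 495 CPM, while the collagens Col1a1 (-0.36), Col1a2 (0.01) and Col3a1 (0.09) had log2 fold changes near 0. The castrated samples were above the intact ones in all 3 lists.

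Adipocyte markers separated the castrated samples from each other: 49.8 CPM in castrated sample 1, 646 and 603 CPM in castrated samples 2 and 3, and 42.0 and 60.5 CPM in the intact samples, led by Fabp4. Lymphocyte markers (8 of 9 higher, 3 at the threshold) had 75.7, 301 and 238 CPM against 31.1 and 89.8 CPM, led by Ptprc, and were again high in castrated samples 2 and 3. Neuroendocrine markers (5 of 5 tested higher, 4 at the threshold) were low in all samples, with 18.8, 26.7 and 30.1 CPM against 1.79 and 2.23 CPM, with Chgb the most abundant over all samples. Endothelial markers (5 of 7 higher, 2 at the threshold) had 422, 298 and 348 CPM against 455 and 201 CPM, with Cdh5 the most abundant over all samples, and neutrophil markers (4 of 5 tested higher, 1 at the threshold) had 168, 138 and 94.1 CPM against 79.0 and 118 CPM, with S100a9 the most abundant over all samples. Epithelial markers (9 of 10 lower in sign, 0 at the threshold) had 4590, 4201 and 5090 CPM against 6727 and 4535 CPM, and overlapped, with Krt8 the most abundant over all samples but Epcam in intact sample 1 and Krt18 in intact sample 2. The part of these cells in the result was not tested. Without castrated samples 2 and 3, which left 1 castrated sample, the median log2 fold change of the 48 genes was -0.35, and 1 of them was lower at the unadjusted threshold, where 0.463% of all genes tested were.

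The counting could mix some of these genes with neighbors. Exons of 19 of the 48 genes overlap exons of a gene on the other strand, and whether the counting used strand was not given in the sources used here. Among the 4 genes that were over 2-fold lower, Taf1d overlaps Cep295 (log2 fold change -0.78) and 4931406C07Rik (-0.06), Nop56 overlaps Idh3b (-0.26), Wdr12 overlaps Carf (-0.78) and Gnl3 overlaps Pbrm1 (-0.31). The part of such overlaps in the result was not tested. Reads from the 2 strands cannot be told apart without the strand setting.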

How the data were processed

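RNA-seq of 3 castrated and 2 intact TripleTg prostate tumors was used. The authors deposited raw HTSeq counts per gene, with a length column in kilobases (not a measurement of a sample). Per the submitters' processing notes, Trimmomatic 0.39, STAR 2.7.9 and HTSeq 2.0.2 were used with mm10. Groups were taken from the labels. Counts were tested with edgeR 4.0.16 (R 4.3.3; TMM scaling, quasi-likelihood F-test, Benjamini-Hochberg adjustment over all genes tested) in all 5 samples after a filter of CPM above 1 in at least 2 samples, the test, filter and thresholds of the study's methods. These name TPM as input, while the deposited values are counts, so counts were tested. TPM was computed from the counts and the length column. Log2 levels used a pseudocount of 0.5. The fit was tested on simulated data. DESeq2 1.42.0, limma 3.58.1, other scalings and filters, and leaving out samples were alternatives. Replicates of a group differed beyond sampling noise (chi-square per gene 133 or more). The labels number the replicates but do not say whether equal numbers pair the samples.

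The 48 genes, their roles and all other lists were chosen with earlier results of these data known. Genes named were fixed representatives of each role, the 3 lowest and 3 highest log2 fold changes, the lowest and highest gene of each other pathway list, and Myc and Xpo1. Snhg1, Mki67 and the cell markers, the remaining genes of small role groups, and overlapping neighbors were named in addition after their values were seen. SnoRNA genes and exon overlaps were taken from GENCODE M21, and promoters from RefSeq GRCm38.p6.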

Additional observations from a re-analysis of the deposited data

How the results depend on the processing

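Across 18 alternatives the count of the 48 genes that were higher at an unadjusted p under 0.05 stayed at 0, and the median log2 fold change stayed negative, from -0.50 to -0.29. The value of -0.29 was for TPM with limma, where the median of all genes tested was 0.13, and leaving out 1 sample gave -0.50 to -0.35. Genes called numbered 0 with edgeR's quasi-likelihood test, 369 with its likelihood ratio test and 989 with DESeq2, and 0 to 1 on leaving out 1 sample. The 15 genes lower at an unadjusted p under 0.05 became 9 with the likelihood ratio test (5.06% of all genes tested were lower) and 21 with DESeq2 (8.64%). On leaving out 1 sample they numbered 9 to 15: 9 without castrated sample 2 (2.47%), 9 without castrated sample 3 (2.49%), and 15 without intact sample 1 (10.2%). They became 1 (0.463%) without castrated samples 2 and 3, an alternative chosen after seeing the data, whose lone castrated sample is assumed to vary like the intact ones. With the replicate block the count was 5, where 1.59% of all genes tested were lower. Same-numbered samples did not deviate together (correlations of 0.17 and -0.04). Genes without overlap numbered 22 for TPM, 29 to 33 with the other settings on all samples, and 30 to 41 on leaving out samples. Fewer samples make an overlap less likely for any gene. The share of all genes tested is given for the main fit only (16.1% with the castrated values lower). The other counts therefore cannot be set against such a share.

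Of the 48 genes, 46 had a negative log2 fold change, 39 with TPM, 43 with the replicate block and 42 without intact sample 2. The values that changed sign follow. Gnl2 became -0.0024 with upper quartile scaling and -0.013 with the length correction. TPM with limma gave 0.076 for Ubtf, 0.016 for Bysl, 0.034 for Bop1, 0.095 for Rrp1, 0.032 for Imp4, 0.11 for Ltv1 and 0.086 for Ebna1bp2. The replicate block gave 0.084 for Bysl, 0.0052 for Bop1 and 0.19 for Ltv1. Without castrated samples 2 and 3, the values were 0.0021 for Rrn3, -0.0082 for Tcof1, 0.042 for Bysl, 0.25 for Bop1, 0.033 for Rrp1, 0.43 for Ltv1 and -0.012 for Gnl2. Leaving out 1 sample gave ranges of -0.14 to 0.024 for Ubtf, -0.46 to 0.025 for Rrn3, -0.052 to 0.41 for Tcof1, -0.42 to 0.22 for Bysl, -0.28 to 0.033 for Bop1, -0.12 to 0.030 for Rrp1, -0.087 to 0.084 for Gnl2, -0.73 to 0.023 for Polr1c, -0.24 to 0.022 for Imp4, -0.66 to 0.74 for Ltv1 and -0.30 to 0.19 for Ebna1bp2. The cause was not tested. With 3 and 2 samples a group and a common dispersion of 0.238, 10 of the 48 genes had an adjusted p under 0.05 with DESeq2, where 1171 of 14612 genes tested did, and 0 with edgeR's quasi-likelihood test.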
